A study of Mus musculus with 6 samples.

Results

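The AP-1 transcription factor genes and 3 further immediate early genes were followed in sorted osteoblasts (OBs) of ectopic bone that BMP-2 had induced. The set comprised 10 genes selected by symbol, namely *Fos*, *Fosb*, *Fosl1*, *Fosl2*, *Jun*, *Junb*, *Jund*, *Egr1*, *Atf3* and *Ier2*, out of 23284 genes listed for each sample. The ECFP+ OBs came from male *Col2.3*-ECFP mice aged 12 to 16 weeks, in which a fragment of the type I collagen promoter drives the cyan fluorescent protein, and each collagen sponge had carried 2.5 μg of BMP-2. Implants were taken at day 10 (n = 3) or at day 14 (n = 3), with CD45+ and dead cells gated out. All 6 samples shared the transgene, the BMP-2 implant and a trypsin step, whereas collagenase II was applied 1 time on day 10 and 2 times on day 14. The day and the number of digestions therefore cannot be told apart in any comparison below. The titles place 3 samples on day 14, which was followed here, while the free-text descriptions of replicates 2 and 3 of that group name day 15 and day 16. The titles call the samples biological replicates, but the sources used here do not say whether each was 1 mouse or a pool, so p-values measure the spread between these samples only.

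AP-1 is a dimer of basic leucine zipper proteins, in which a Fos protein pairs with a Jun protein or Jun proteins pair with each other. Immediate early genes are transcribed within minutes of a growth factor, mechanical or stress stimulus without new protein synthesis, and most of their mRNAs are short-lived. In bone, Fos proteins act in both OBs and osteoclasts, Fra-1 (encoded by *Fosl1*) promotes matrix formation by OBs, and Fra-2 (encoded by *Fosl2*) with JunD is linked to OB differentiation. Warm enzymatic digestion of tissue is also a known inducer of these genes, and no sample without digestion was among the data.

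The sequences upstream of 4 members are shown because they span the range of levels found, from the highest member (*Fos*) to the lowest (*Fosl2*). Promoters of 7 members were matched in RefSeq (build GRCm38.p6, which has the coordinates of mm10), namely *Fos*, *Fosb*, *Fosl2*, *Jun*, *Junb*, *Jund* and *Atf3*. Each line gives the 150 bases before the start in the RefSeq table, 5′ to 3′ on the strand of the gene. These starts can differ from the GENCODE spans given further on. The *Fosl2* and *Atf3* windows lie inside the GENCODE gene, and the *Jund* window ends at 70697738, before the GENCODE start at 70698949. Capitals mark matches on either strand to the core TGACG of the cyclic AMP response element (CRE), the *Jun* promoter element TGACATCA, the EGR site GCGNGGGCG and the TATA box TATAAA. The positions are chr12:85473740-85473889 on the plus strand for *Fos*, chr7:19310046-19310195 on the minus strand for *Fosb*, chr4:95052223-95052372 on the minus strand for *Jun* and chr5:32136322-32136471 on the plus strand for *Fosl2*.
Fos: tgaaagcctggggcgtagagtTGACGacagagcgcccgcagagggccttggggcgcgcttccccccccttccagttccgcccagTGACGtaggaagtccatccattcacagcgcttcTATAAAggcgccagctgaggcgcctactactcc
Fosb: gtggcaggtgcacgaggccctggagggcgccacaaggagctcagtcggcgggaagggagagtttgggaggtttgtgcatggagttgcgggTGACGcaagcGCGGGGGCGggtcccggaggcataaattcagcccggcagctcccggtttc
Jun: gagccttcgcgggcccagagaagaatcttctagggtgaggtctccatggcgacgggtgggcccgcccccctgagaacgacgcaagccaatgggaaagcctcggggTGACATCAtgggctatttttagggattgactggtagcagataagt
Fosl2: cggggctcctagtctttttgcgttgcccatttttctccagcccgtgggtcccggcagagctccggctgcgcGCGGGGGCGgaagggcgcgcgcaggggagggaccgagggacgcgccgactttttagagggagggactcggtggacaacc

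In windows from 250 bases before to 50 bases after the start, searched on both strands, this core was found in 4 of the 7 members and in 20.81% of 32851 promoters in the table. Both matches upstream of *Fos*, at −129 and −66, are among these, and the TATA box of *Fos* began at −33. The element TGACATCA, bound by Jun and ATF proteins, was found only in *Jun* among the 7, at −45, and in 3.62% of all promoters. The EGR site, the binding sequence of the EGR zinc finger proteins, was found in *Fosb* and *Fosl2* and in 5.55% of all promoters, and it can overlap the GC box GGGCGG, which was found in 5 of the 7 and in 35.66%. TATAAA was found in 2 of the 7, *Fos* and *Junb*, and in 13.62% of all promoters. The full CRE TGACGTCA (1.79% of promoters), the AP-1 site TGANTCA (7.81%) and the CArG box of the serum response factor (1.63%) had no match within these 7 windows. The well-known serum response element of *Fos* lies further upstream than the window reaches.

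AU-rich elements in the 3′ untranslated region mark many mRNAs for rapid decay and were not used to choose the genes. In 1 annotated transcript per gene, the pentamer ATTTA was present in 9 of the 10 members, *Ier2* being the exception, and in 65.9% of 15864 tested genes with an annotated 3′ untranslated region. Among the 10226 genes with a region as long as those of the members the share was 81.5%, close to that of the members. The heptamer TATTTAT was present in 7 of 10 members and 28.1% of these genes. Among the genes of like length the share was 35.2%. The nonamer TTATTTATT, which contains both shorter motifs, was present in *Fos* and *Fosl2*, in 7.5% of these genes and in 8.8% of those of like length. These windows (nonamer in capitals, sense strand, from the GENCODE vM21 transcripts) lie at chr12:85477103-85477131 for *Fos* and chr5:32156871-32156899 for *Fosl2*, both on the plus strand.
Fos: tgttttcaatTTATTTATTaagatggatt
Fosl2: atttattttaTTATTTATTttaaatgttt

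The 6 libraries held an estimated 4548271 to 7792387 mapped reads each, inferred from the steps between low FPKM values, and 3 reads on 1000 bases then correspond to 0.385 to 0.66 FPKM (counting error only). All 9 OB markers examined, including *Col1a1*, *Ibsp*, *Alpl*, *Sp7* and *Runx2*, were above 0 FPKM in all 6 samples. Their summed level, carried by the collagen genes and *Ibsp*, was 39665 to 76098 FPKM on day 10 and 26360 to 53324 FPKM on day 14. Replicates 1 and 3 of day 14 stood apart in several of these markers. *Ibsp* was at 3460 and 1293 FPKM there, against 15632 FPKM in replicate 2 and 10072 to 25254 FPKM on day 10. *Alpl* was at 273 and 186 FPKM, against 1300 FPKM in replicate 2 and 809 to 1129 FPKM on day 10, and *Dlx5* was at 0.979 and 1.01 FPKM, against 9.84 FPKM and 7.56 to 9.88 FPKM. *Sp7* was lower in all day 14 samples (4.09 to 27.9 FPKM) than in those of day 10 (40.1 to 73.7 FPKM). The part of these differences in the values of the members was not tested. Replicate 2 of day 14 stood apart from the other day 14 samples in chondrocyte markers (summed level of 10 genes 1022 FPKM, against 114 and 72.5 FPKM in replicates 1 and 3, and 401 to 827 FPKM on day 10). Replicate 3 of day 14 had the highest summed level of 9 myeloid markers (632 FPKM, against 257 and 12.4 FPKM in replicates 1 and 2, and 34.1 to 144 FPKM on day 10). Members' values without a single sample are given beside those values below.

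The immediate early genes were at high levels in the OBs on both days. All 10 members were above 0 FPKM in all 6 samples, and 8 of them had a mean above 100 FPKM, a level exceeded by 607 genes (2.61%) of those listed. Together they made up 0.833% ± 0.133 (SD, n = 3) of the summed FPKM on day 10 and 0.87% ± 0.114 (SD, n = 3) on day 14. FPKM is scaled per transcript length, so levels of different genes can be set side by side approximately. Overlapping genes and reads from unspliced RNA or genomic DNA, described below, limit this for some members. *Fos* was the highest member, with a mean of 1537 FPKM over the 6 samples and rank 19 among all genes listed. It was followed by *Egr1* with 800 FPKM (rank 57), *Junb* with 435 FPKM (rank 117) and *Jun* with 397 FPKM (rank 135). *Ier2* and *Atf3* both had a mean of 246 FPKM (ranks 241 and 244), and *Jund* had 154 FPKM (rank 391). *Fosb* had 103 FPKM (rank 594), *Fosl1* 38.4 FPKM (rank 1561) and *Fosl2* 7.75 FPKM (rank 5375).

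**Figure D1:**
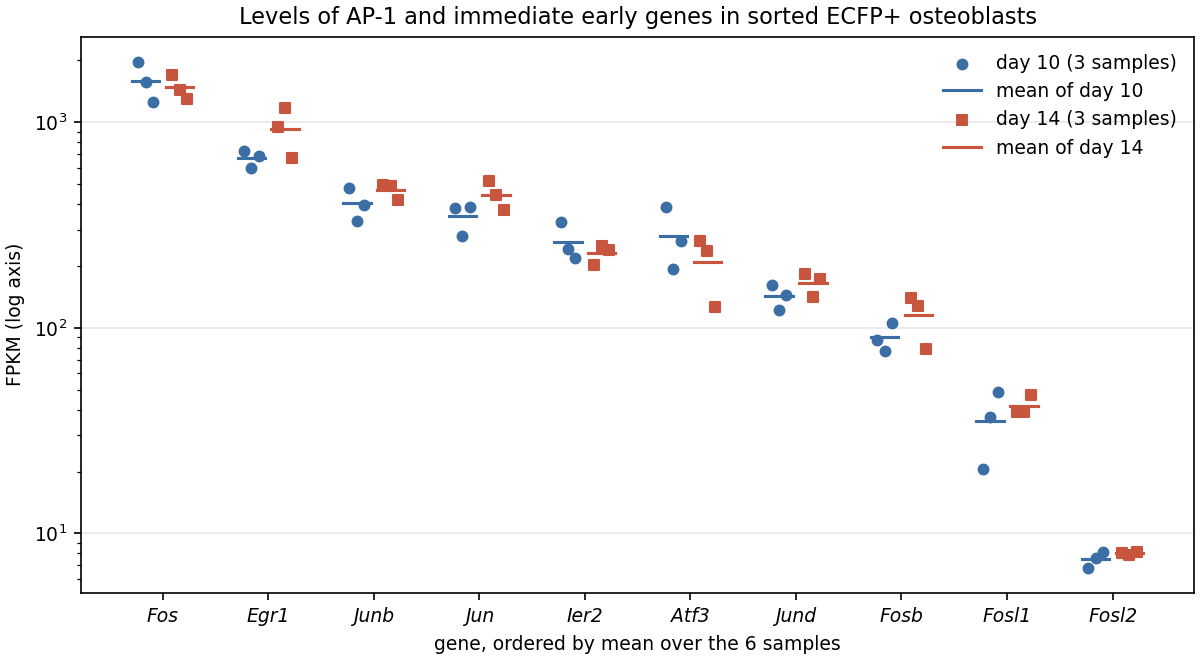
FPKM (log axis) of the 10 genes in the 3 samples of day 10 (circles) and the 3 samples of day 14 (squares), with horizontal bars for the day means and genes ordered by their mean over the 6 samples. Levels span from 1965 FPKM (*Fos*, day 10 replicate 1) to 6.82 FPKM (*Fosl2*, day 10 replicate 1), and the days overlap in each of the 10 genes.

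The order of the levels was clear at its ends and not in the middle. *Fos* was above *Egr1* in 6 of 6 samples, by 0.96 ± 0.42 on the log2 scale (SD of the within-sample difference, n = 6), and the ranges of both genes did not overlap. The same held for *Egr1* above *Junb* (0.85 ± 0.24), *Fosb* above *Fosl1* (1.43 ± 0.53) and *Fosl1* above *Fosl2* (2.25 ± 0.36), again as log2 differences of levels within a sample. The ranges overlapped in the other neighbouring pairs. *Junb* exceeded *Jun* in 5 of 6 samples by 0.14 ± 0.14, and *Ier2* exceeded *Atf3* in 3 of 6 samples by 0.07 ± 0.49, so that neither pair was separated beyond its spread. *Jun* was above *Ier2* in 6 of 6 samples (0.68 ± 0.43), *Atf3* above *Jund* in 5 of 6 (0.61 ± 0.57) and *Jund* above *Fosb* in 6 of 6 (0.61 ± 0.36).

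The comparison of day 14 with day 10 asked how the mRNA levels of these genes differed between the earlier and the later implants. None of the 10 members changed by the test used. Of the 10, 0 had an adjusted p under 0.05 from limma, where 0.0154% of the 19526 genes tested did, and 0 had an unadjusted p under 0.05, where 10.0% of the genes did. The samples of the days overlapped in all 10 members, while 14.3% of the genes tested had days that did not overlap in either direction. Both shares were larger among the 11162 genes with a mean above 1 FPKM, fitted on their own. Of these, 15.3% had an unadjusted p under 0.05 and 20.3% had days that did not overlap. Without replicate 3 of day 14, the days did not overlap in 4 members, *Fosb*, *Jun*, *Junb* and *Egr1*, and 2 of them, *Fosb* and *Egr1*, had an unadjusted p under 0.05. In that setting, with 3 samples against 2, 21.1% of all genes had days that did not overlap and 7.00% had such a p. The mean was higher on day 14 in 7 members and lower in *Fos*, *Atf3* and *Ier2*. The median log2 fold change was 0.22 over the members and −0.043 over all genes tested, or 0.039 over the 4605 genes with a mean of at least 10 FPKM. In these bulk samples, a lower level per cell and a smaller share of expressing cells cannot be told apart.

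The limma intervals show how large a difference these samples leave possible. The 95% interval of the fold change included no change in all 10 members, and it lay within a 2-fold change in either direction for 8 of them. The exceptions were *Egr1*, whose interval reached 2.04-fold, and *Atf3*, whose interval reached down to 0.434-fold. A missed threshold does not show equal levels.

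**Figure D2:**
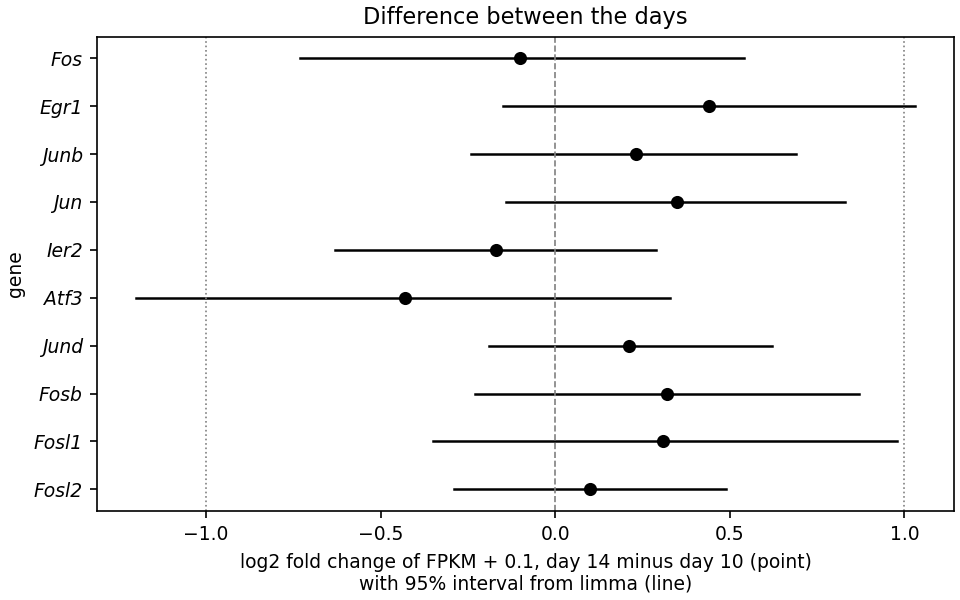
Log2 fold change of FPKM + 0.1, day 14 over day 10 (points) with 95% limma intervals (lines) for the 10 genes, n = 3 per day. The dashed line marks no change and the dotted lines a 2-fold change, and all 10 intervals cross the dashed line.

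Among the Fos family, which needs a Jun partner to bind DNA, *Fos* itself lies on chromosome 12 from 85473890 to 85477273 (mm10, plus strand, 4 exons). Replicates 1, 2 and 3 of day 10 held 1965, 1568 and 1256 FPKM, and the day 14 replicates, in the same order as throughout, held 1702, 1434 and 1300 FPKM. The day 14 values all lay within the range of day 10. The fold change was 0.936 (95% interval 0.602 to 1.45, log2 fold change −0.10, standard error 0.28, adjusted p = 0.954 from limma). Under quantile normalization of the samples the 3 day 14 values of *Fos* all lay below those of day 10. The log2 fold change was then −0.44, with an adjusted p of 0.5 from limma, and 17.4% of all genes had days that did not overlap. Without replicate 1 of day 10, the highest sample of *Fos*, the log2 fold change was 0.07.

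*Fosb*, on chromosome 7 from 19302696 to 19310051 (minus strand, 4 exons), encodes the full-length FosB protein and the truncated ΔFosB, which gene-level values do not separate. It was at 87.1, 77.4 and 106 FPKM in the day 10 samples and 140, 128 and 78.5 FPKM in the day 14 samples. Replicates 1 and 2 of day 14 exceeded all day 10 samples, while replicate 3 was near the lowest of them. The fold change was 1.25 (95% interval 0.855 to 1.83, adjusted p = 0.725 from limma). Without replicate 3 of day 14, the sample with the highest myeloid markers, the log2 fold change was 0.58 with an unadjusted p under 0.05 and an adjusted p of 0.643 from limma. Without replicate 1 of day 14, the highest sample, it was 0.16. Replicate 3 of day 14 also had the lowest *Ibsp* (1293 FPKM) and *Alpl* (186 FPKM), and its description names day 16. The part of myeloid cells or of these other differences in the *Fosb* values was not tested.

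*Fosl1*, on chromosome 19 from 5447547 to 5455946 (plus strand, 4 exons), was at 20.5, 37 and 48.6 FPKM in the day 10 samples and 38.8, 38.9 and 46.9 FPKM in the day 14 samples. Replicate 1 of day 10 was the lowest, and the day 14 samples lay between the other day 10 samples. The fold change was 1.24 (95% interval 0.783 to 1.97, adjusted p = 0.792 from limma), and without that lowest sample the log2 fold change was −0.04. Without replicate 3 of day 10, the highest sample, the log2 fold change was 0.59 and the days did not overlap. In that setting 25.6% of all genes had days that did not overlap. *Fosl2*, on chromosome 5 from 32135801 to 32157842 (plus strand, 4 exons), was the most even of the members. It was at 6.82, 7.58 and 8.08 FPKM in the day 10 samples and 8.04, 7.86 and 8.1 FPKM in the day 14 samples, a fold change of 1.07 (95% interval 0.816 to 1.4, adjusted p = 0.909 from limma). Its highest value was 1.19 times its lowest. Without replicate 3 of day 10 the days of *Fosl2* did not overlap either, with a log2 fold change of 0.15. Even these lower members rested on many reads, with an estimated 162 to 615 reads per sample for *Fosl1* and 209 to 396 for *Fosl2*.

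*Fos* made up most of the Fos family mRNA in each sample. Its share of the summed FPKM of the 4 genes was 94.5%, 92.8% and 88.5% on day 10 and 90.1%, 89.1% and 90.7% on day 14. *Fosb* held 5.42% ± 1.81 on day 10 and 6.95% ± 1.3 on day 14, *Fosl1* 2.2% ± 1.22 and 2.58% ± 0.622, and *Fosl2* 0.449% ± 0.121 and 0.493% ± 0.0699 (SD, n = 3). The days overlapped for each of the 4 shares, and the smallest two-sided exact permutation p among them was 0.3, where 3 samples against 3 allow no p below 0.1.

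The Jun family can form AP-1 without a Fos partner, and its 3 genes consist of a single exon each. *Jun* lies on chromosome 4 from 95049034 to 95052222 (minus strand). It was at 385, 281 and 386 FPKM in the day 10 samples and 517, 441 and 376 FPKM in the day 14 samples. Replicate 3 of day 14 lay below replicates 1 and 3 of day 10, so the days overlapped, and 7 of the 9 pairs of a day 14 and a day 10 sample had the higher value on day 14. The fold change was 1.27 (95% interval 0.908 to 1.78, log2 fold change 0.35, standard error 0.21, adjusted p = 0.644 from limma).

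*Junb*, on chromosome 8 from 84974484 to 84978718 (minus strand), encodes a Jun protein with weaker activation of many AP-1 targets than c-Jun. It was at 481, 331 and 397 FPKM in the day 10 samples and 495, 488 and 419 FPKM in the day 14 samples. In 8 of 9 pairs the day 14 sample was higher, the exception being replicate 3 of day 14 against replicate 1 of day 10. The fold change was 1.17 (95% interval 0.848 to 1.61, adjusted p = 0.785 from limma), and the sign was opposite under quantile normalization (log2 fold change −0.04). Without replicate 1 of day 10 the days of *Junb* did not overlap, with a log2 fold change of 0.36. In that setting 18.5% of all genes had days that did not overlap. *Jund*, on chromosome 8 from 70698949 to 70700616 (plus strand), encodes the Jun protein that is typically present in resting cells as well. It was at 162, 122 and 144 FPKM in the day 10 samples and 183, 141 and 172 FPKM in the day 14 samples, a fold change of 1.16 (95% interval 0.875 to 1.54, adjusted p = 0.767 from limma). Without replicate 2 of day 14, the sample with the highest chondrocyte markers, the days of *Jund* no longer overlapped, with a log2 fold change of 0.32 and an adjusted p of 0.546 from limma, in a setting where 28.5% of all genes had days that did not overlap. Without replicate 2 of day 10, the log2 fold changes of *Jund* and *Junb* were 0.1 and 0.09.

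The composition of the Jun family varied little between samples. *Junb* held 44.9% ± 2.01 of its summed FPKM on day 10 and 43.5% ± 2.09 on day 14, *Jun* 39.1% ± 2.23 and 41.1% ± 2.17, and *Jund* 16.0% ± 0.566 and 15.4% ± 2.3 (SD, n = 3). The smallest two-sided exact permutation p among these shares was 0.3. The summed FPKM of the Fos family was 2.02, 2.3 and 1.53 times that of the Jun family on day 10 and 1.58, 1.5 and 1.48 times on day 14. The day 14 ratios were close to each other, and that of replicate 3 of day 10 lay among them (two-sided exact permutation test, p = 0.2).

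*Egr1*, on chromosome 18 from 34859823 to 34864984 (plus strand, 2 exons), encodes a zinc finger factor that responds to serum and mechanical load. It was at 725, 601 and 688 FPKM in the day 10 samples and 944, 1176 and 670 FPKM in the day 14 samples. Replicates 1 and 2 of day 14 were above all day 10 samples and replicate 3 was not. *Egr1* had the largest difference toward day 14 of the 10 members, with a fold change of 1.35 (95% interval 0.901 to 2.04, log2 fold change 0.44, standard error 0.26, adjusted p = 0.627 from limma). Its log2 fold change was 0.66 without replicate 3 of day 14 (unadjusted p under 0.05, adjusted p = 0.696 from limma) and 0.25 without replicate 2 of day 14.

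*Atf3*, on chromosome 1 from 191170296 to 191218039 (minus strand, 4 exons in the transcript used), encodes a stress-responsive factor that can pair with Jun proteins and often represses. It was at 387, 193 and 264 FPKM in the day 10 samples and 265, 237 and 127 FPKM in the day 14 samples. It varied most of the members, with a highest value 3.04 times the lowest and an SD within days of 0.537 on the log2 scale, larger than that of 89.4% of the 4605 genes of at least 10 FPKM. The fold change was 0.74 (95% interval 0.434 to 1.26, log2 fold change −0.43, standard error 0.34, adjusted p = 0.743 from limma), and without replicate 3 of day 14 the log2 fold change was −0.11. *Ier2*, on chromosome 8 from 84661331 to 84662852 (minus strand, 1 exon), encodes a nuclear immediate early protein outside the leucine zipper families. It was at 326, 243 and 219 FPKM in the day 10 samples and 202, 251 and 239 FPKM in the day 14 samples, a fold change of 0.888 (95% interval 0.647 to 1.22, adjusted p = 0.843 from limma). Replicate 1 of day 10 was highest in *Ier2*, as it was in *Fos* and *Atf3*.

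Several members overlap other annotated genes, and no source used here states that strand was kept. *Jun* overlaps the antisense gene *Junos*, *Jund* overlaps *Gm11175*, *Junb* overlaps *Prdx2*, *Fosl1* overlaps *Ccdc85b*, and *Atf3* overlaps *Gm24748*. Reads from such shared stretches cannot be assigned to a single gene, so the levels of these 5 members are uncertain to that extent. In the 4 members with 1 exon in the transcript used, reads from unspliced RNA or genomic DNA look like those from mRNA.

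Members also differed in how they varied between samples. After centring each gene on its own mean log2(FPKM + 0.1), the Jun genes deviated alike, and all 3 were lowest in replicate 2 of day 10 and highest in replicate 1 of day 14. The root mean square difference between centred profiles over the 6 samples was 0.125 for *Jun* and *Junb*, the smallest of the 45 pairs, and 0.156 for *Junb* and *Jund*. *Fosb* and *Egr1* were also close to this pattern (0.174 between *Fosb* and *Jun*, 0.209 between *Jun* and *Egr1*). *Fos* was closest to *Ier2* (0.209). *Fosl1* and *Atf3* were the least alike (0.827), and replicate 1 of day 10 showed this most clearly, with the lowest *Fosl1* (−0.86) and the highest *Atf3* (0.73) on the centred log2 scale. Of the 10 members, 5 were lowest in replicate 2 of day 10. These values are descriptions over 6 samples that share their libraries.

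**Figure D3:**
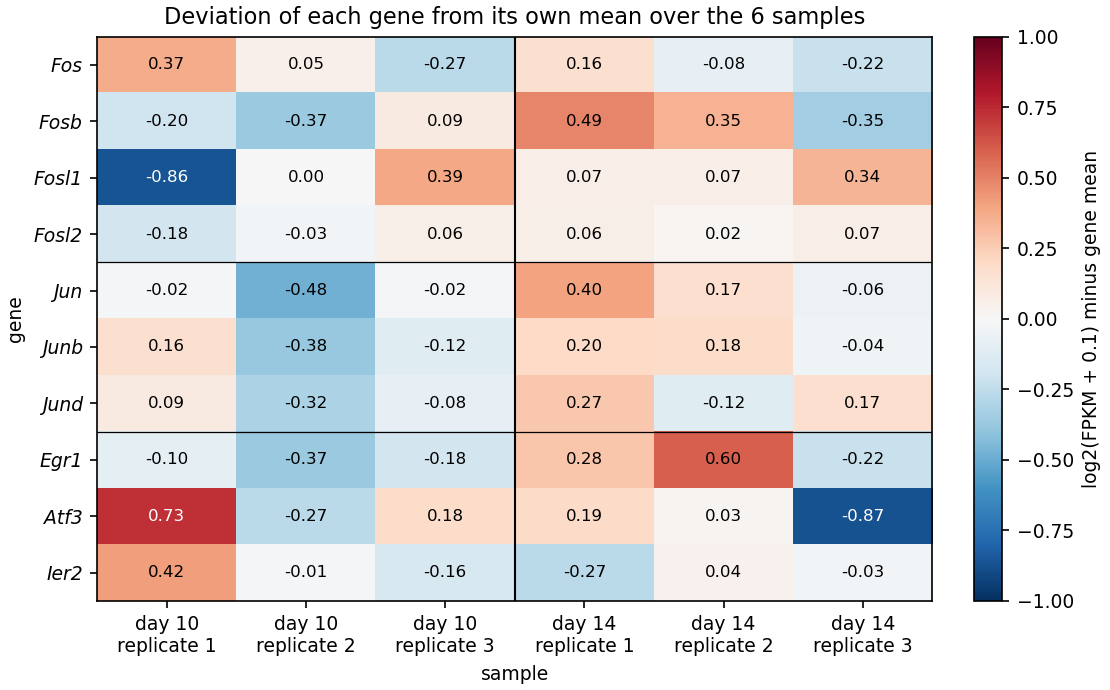
Deviation of log2(FPKM + 0.1) from the mean of each gene over the 6 samples, as numbers and as colour from blue (low) to red (high), with the Fos family, the Jun family and the other 3 genes in blocks from top to bottom and a vertical line between the days. The 3 Jun genes are lowest in day 10 replicate 2, while *Atf3* runs from 0.73 in day 10 replicate 1 to −0.87 in day 14 replicate 3.

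The genes outside the set whose centred profiles came nearest to a member were sought among 4596 genes with a mean of at least 10 FPKM. For *Fos* these were *Necap2* (root mean square difference 0.087), *Gsn* (0.087), which encodes the actin-severing protein gelsolin, and *Bckdha* (0.089), and 201 genes lay within 0.2. For *Egr1* they were *Mbnl1* (0.091), a splicing regulator, *Cpt1c* (0.115) and *Galnt11* (0.119), with 46 genes within 0.2. For *Fosl1* they were *Emilin2* (0.107), an extracellular matrix glycoprotein gene, *Higd1a* (0.11) and *Rac3* (0.135), a small GTPase gene, with 20 genes within 0.2. None of these 9 genes is on the lists of related genes below. With 6 samples, many genes share any given pattern, as these numbers show.

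The related genes were described by lists of 106 genes in 6 groups, none of which had an adjusted p under 0.05 from limma (smallest 0.1). Of the 106 genes, 26 had an unadjusted p under 0.05, where 10.0% of all genes tested did. The share was 15.3% among the genes with a mean above 1 FPKM, fitted on their own. Heat shock genes made up 11 of the 26. Of 40 further immediate early genes, 16 had a mean above 100 FPKM. The highest was *Dusp1*, which encodes a MAP kinase phosphatase, at 1075, 747 and 710 FPKM in the day 10 samples and 902, 699 and 931 FPKM in the day 14 samples. Its log2 fold change was 0.01, with the opposite sign under both sum scaling (−0.01) and quantile normalization (−0.33). Of the 40 genes, 7 had an unadjusted p under 0.05 with a higher level on day 14 (5.60% of all genes tested) and 0 with a lower one. Among genes with a mean above 1 FPKM, fitted on their own, 9.11% had such a p toward day 14. That share can also be set beside each list below. The 7 became 14 without replicate 3 of day 14, where 4.02% of all genes had such a p, and 4 without replicate 2 of day 10, where 4.50% did. The days did not overlap in 6 of the 40, all higher on day 14, where 7.59% of all genes did so. The median log2 fold change of the list was 0.39. *Nfkbia*, which encodes the NF-κB inhibitor IκBα, had the smallest p, with 231, 196 and 309 FPKM in the day 10 samples and 500, 406 and 485 FPKM in the day 14 samples (log2 fold change 0.94, adjusted p = 0.298 from limma). *Klf2*, a flow-responsive Krüppel-like factor gene, had the smallest p among the genes with a lower mean (log2 fold change −0.58, adjusted p = 0.576 from limma).

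Genes that can pair with the members or precede them were mostly at lower levels. Among 14 further leucine zipper genes, the median of the mean levels was 7.71 FPKM, and *Atf4* was the highest at 88.5, 95.8 and 95.6 FPKM in the day 10 samples and 101, 134 and 108 FPKM in the day 14 samples (log2 fold change 0.28, adjusted p = 0.607 from limma). In this list 3 genes had an unadjusted p under 0.05 with a higher level on day 14 (5.60% of all genes tested) and 0 with a lower one. The median log2 fold change of this list was 0.28. The smallest p in it was that of *Nfe2l2*, which encodes the oxidative stress regulator Nrf2 (log2 fold change 0.57, adjusted p = 0.34 from limma). *Batf3* had the smallest p among those with a lower mean (log2 fold change −0.69, with an adjusted p of 0.785 from limma), and its value lay between −1.24 without replicate 2 of day 14 and −0.29 without replicate 3 of day 14.

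The 20 upstream kinases and factors had a median log2 fold change of −0.04. Of the 20, 2 had an unadjusted p under 0.05 with a higher level on day 14 (5.60% of all genes tested) and 0 with a lower one. *Map3k8* had the smallest p toward day 14 (log2 fold change 0.92, adjusted p = 0.433 from limma) and *Rps6ka1* the smallest toward day 10 (log2 fold change −0.66, adjusted p = 0.644 from limma). Of 6 MAP kinase phosphatase genes, 0 had an unadjusted p under 0.05, where 10.0% of all genes tested did. *Dusp6*, the highest of them, had a log2 fold change of 0.04 with the opposite sign under quantile normalization (−0.02), while *Dusp4* had the smallest p toward day 14 (1.03, adjusted p = 0.693 from limma) and *Dusp8* toward day 10 (−0.66, adjusted p = 0.686 from limma). Single samples decided both values, with 0.09 for *Dusp4* without replicate 1 of day 10 and −0.15 for *Dusp8* without replicate 3 of day 14. *Map3k8* ranged from 0.62 without replicate 1 of day 14 to 1.31 without replicate 2 of day 14.

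Of 14 genes known as AP-1 targets in stroma and bone, 3 had an unadjusted p under 0.05 with a higher level on day 14. Over all genes tested the share was 5.60%. In this list 0 genes had such a p with a lower level, and the median log2 fold change was 0.59. *Mgp*, which encodes the calcification inhibitor matrix Gla protein and is a target of Fra-1, had the smallest p. It was at 466, 441 and 421 FPKM in the day 10 samples and 1083, 1270 and 1351 FPKM in the day 14 samples, with no overlap (log2 fold change 1.47, standard error 0.20, adjusted p = 0.14 from limma). *Bglap*, the osteocalcin gene, was at 582, 2086 and 183 FPKM in the day 10 samples and 302, 530 and 110 FPKM in the day 14 samples, and its value is uncertain because reads can be shared with *Bglap2* (log2 fold change −1.22, adjusted p = 0.705 from limma, but −0.33 without replicate 2 of day 10, −0.6 without replicate 3 of day 14 and −2.08 without replicate 3 of day 10). *Col1a2* was the highest of the list (log2 fold change −0.42, with an adjusted p of 0.875 from limma).

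The heat shock genes respond to protein damage and heat. In all 12 of those listed the day 14 samples lay above the day 10 samples, where 7.59% of all genes tested did so. Of the 12, 11 had an unadjusted p under 0.05 with a higher level on day 14, where 5.60% of all genes did. However, 0 had an adjusted p under 0.05 from limma. The list was chosen with earlier results of these data known, so its counts beside these shares are a description only. *Hsph1* had the smallest p, with 12.9, 10.9 and 14.6 FPKM in the day 10 samples and 36.7, 45.1 and 31.7 FPKM in the day 14 samples (log2 fold change 1.55, standard error 0.19, adjusted p = 0.1 from limma). Without replicate 2 of day 14 its adjusted p was 0.037 from limma. In that setting 76 of all genes had an adjusted p under 0.05, against 3 with all samples. *Hsp90ab1* was the highest of the list, with 231, 233 and 254 FPKM in the day 10 samples and 297, 398 and 300 FPKM in the day 14 samples (log2 fold change 0.46, with an adjusted p of 0.452 from limma). The median log2 fold change of the 12 genes was 0.85, beside 0.22 for the members. The difference between the lists was not tested, and the day and the second digestion cannot be told apart for either.

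**Figure D4:**
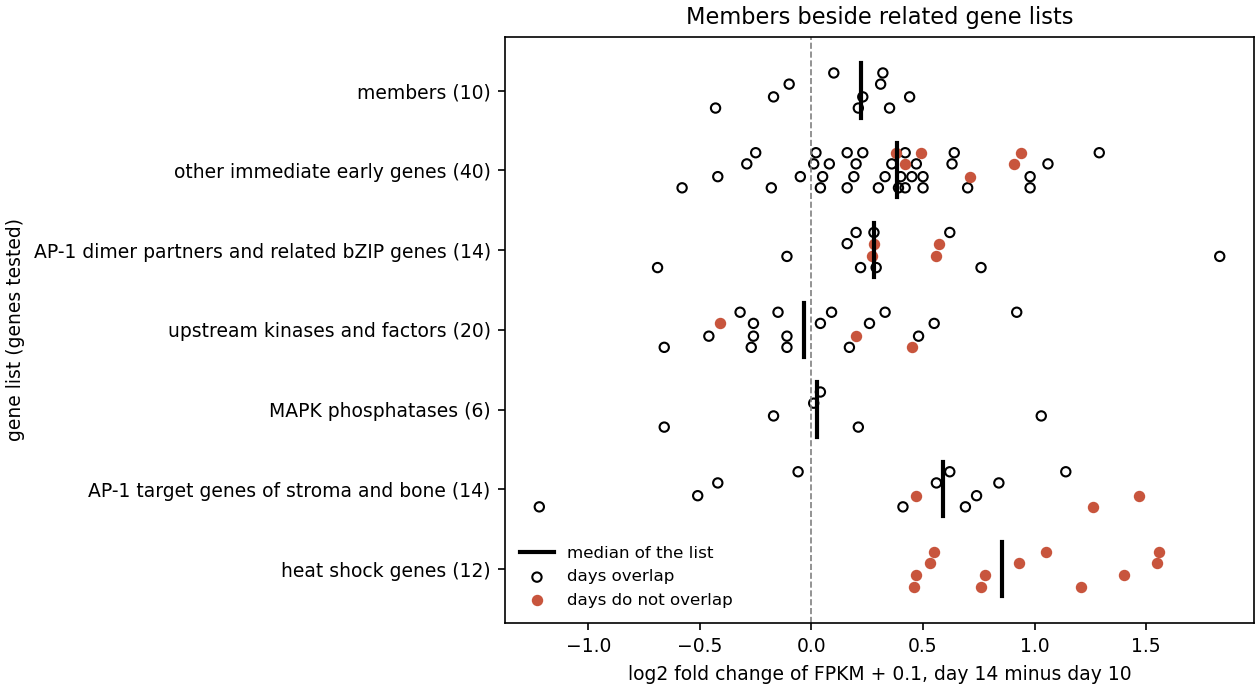
Log2 fold change of FPKM + 0.1, day 14 over day 10, for the 10 members and 6 lists of related genes, 1 point per gene, filled where the samples of the days do not overlap, with a vertical bar at the median of each list. The members show no filled point, the 40 other immediate early genes show 6, and all 12 heat shock genes are filled. Over all genes tested, 14.3% had days that did not overlap, and 20.3% of those with a mean above 1 FPKM did. The members and lists were chosen with earlier results of these data known.

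Markers of other cell types were measured in the same samples. Endothelial markers were low, with a summed level of 7 genes of 1.41 to 3.21 FPKM on day 10 and 3.18 to 6.74 FPKM on day 14, and *Cdh5*, *Kdr* and *Vwf* under 1 FPKM in all samples. The 6 lymphocyte markers summed to 0.638 to 4.62 FPKM, and the 5 adipocyte markers to 8.88 to 17.3 FPKM on day 10 and 15.2 to 30.8 FPKM on day 14, nearly all of it *Fabp4*, while *Adipoq*, *Plin1*, *Cidec* and *Lep* were under 1 FPKM in all samples. The 7 neutrophil markers reached a sum of 260 FPKM in replicate 2 of day 10, the sample in which 5 members were lowest. They summed to 9.49 and 11.4 FPKM in the other day 10 samples and 1.39 to 53.1 FPKM on day 14. Nearly all of the 260 FPKM was *S100a8* (166 FPKM) and *S100a9* (92.1 FPKM). *Camp* was lower there (0.929 FPKM) than in replicates 1 and 3 of day 10 (3.13 and 1.31 FPKM). *Ngp*, *Ltf*, *Mpo* and *Elane* were under 1 FPKM in all samples. The list of 6 osteoclast genes summed to 446 to 487 FPKM on day 10 and 627 to 675 FPKM on day 14. Most of this was *Ctsk*, at 403 to 425 FPKM on day 10 and 574 to 614 FPKM on day 14. The days overlapped in *Acp5* (22.8 to 35.1 and 18.3 to 37.7 FPKM) and *Mmp9* (7.73 to 24.7 and 22.6 to 35.9 FPKM). *Ocstamp*, *Dcstamp* and *Calcr* were under 1 FPKM in all samples. The 5 smooth muscle genes summed to 324 to 777 FPKM on day 10 and 506 to 662 FPKM on day 14, with *Myh11* under 1 FPKM in all samples, and 5 erythroid genes to 32.3 to 106 FPKM and 41.7 to 124 FPKM. The part of these cells in the levels of the members was not tested.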

How the data were processed

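RNA of ECFP+ OBs from 3 day 10 and 3 day 14 samples was amplified with a SMART-Seq kit and read as 75 bp single ends. The submitters' processing notes name TopHat2 2.0.13, Bowtie2 2.2.3, SAMtools 0.1.19, Cufflinks 2.2.1 and mm10. The authors deposited 1 table of FPKM per sample with 23284 gene symbols, and raw counts were not used here. In replicate 2 of day 14, 25 symbols that a spreadsheet had turned into dates were restored. Depth was estimated from the smallest steps of FPKM in 1977 genes with 1 transcript of 1500 to 8000 bases. Only their nonzero values under 0.3 FPKM were used, 423 to 719 per sample. Of these values, 74.9% to 79.3% lay within 0.1 of a whole read. This is too low a share to recover counts, so no count test was run.

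Groups followed the titles. Genes with a mean above 0.1 FPKM (19526) were tested on log2(FPKM + 0.1) with limma 3.58.1 (moderated statistics with a mean-variance trend, R 4.3.3), with Benjamini-Hochberg adjustment over all of them and a threshold of 0.05. Fold changes on this scale understate those of low genes. Single shares were compared by two-sided exact permutation tests. Samples with the same replicate number shared little deviation over all genes tested, and no block was used in the main fit. The code was tested on simulated data.

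The members and lists were chosen with earlier results of these data known. Named were the 10 members, the gene with the smallest p in each direction and the highest mean in each list, and the 3 nearest profiles of *Fos*, *Fosl1* and *Egr1*. The rule also names a gene whose values are not reported here. Lists are described by counts, without a set test. Alternatives covered the pseudocount, filters, scaling, the variance trend, a replicate block and leaving out each sample. Gene positions are from GENCODE vM21 (mm10).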

Additional observations from a re-analysis of the deposited data

How the results depend on the processing

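Over 15 alternative settings, 9 of which kept all samples, 0 of the 10 members had an adjusted p under 0.05 from limma, and the smallest was 0.406 (*Egr1*, genes with a mean above 1 FPKM). Under quantile normalization the log2 fold changes of *Junb* (−0.04), *Dusp1* (−0.33) and *Dusp6* (−0.02) had the opposite sign. In that setting 1 of the 10 members (*Fos*, lower) had days that did not overlap, where 17.4% of all genes did. There, 4 of the 40 other immediate early genes had an unadjusted p under 0.05 with a higher level on day 14, where 5.80% of all genes did. *Dusp1* was also opposite (−0.01) with FPKM rescaled to the same sum in each sample. Without the mean-variance trend, 3 of the 40 and 7 of the 12 heat shock genes had an unadjusted p under 0.05 with a higher level on day 14. The share over all genes in that setting was 3.70%. The cause of these differences was not tested.

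Leaving out 1 sample at a time gave log2 fold changes of −0.26 to 0.07 for *Fos*, 0.16 to 0.58 for *Fosb*, −0.04 to 0.59 for *Fosl1*, 0.2 to 0.46 for *Jun*, 0.09 to 0.36 for *Junb*, 0.1 to 0.32 for *Jund*, 0.25 to 0.66 for *Egr1*, −0.68 to −0.11 for *Atf3*, 0.09 to 1.72 for *Dusp4*, −1.04 to −0.15 for *Dusp8*, −2.08 to −0.33 for *Bglap*, −0.1 to 0.2 for *Dusp1* and −0.21 to 0.19 for *Dusp6*. *Fos* and *Fosl1* had the opposite sign without replicate 1 of day 10. From 0 to 2 members had an unadjusted p under 0.05, and both (*Fosb* and *Egr1*) did so without replicate 3 of day 14, where 7.00% of all genes did. From 0 to 4 members had days that did not overlap, the 4 being *Fosb*, *Jun*, *Junb* and *Egr1* without that same replicate, where 21.1% of all genes did so. From 4 (without replicate 2 of day 10) to 14 (without replicate 3 of day 14) of the 40 immediate early genes, and 9 to 12 heat shock genes, had an unadjusted p under 0.05 with a higher level on day 14. From 0 to 1 related gene had an adjusted p under 0.05 (*Hsph1*, 1.42, adjusted p = 0.037 from limma, without replicate 2 of day 14), and 3 to 76 of all genes did, with 76 without that replicate.

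With the replicate number as a block, 0 members had an adjusted p under 0.05, and 2 of all genes tested did, against 3 without it. The correlations of deviations between samples with the same number were 0.058, −0.00584 and 0.0887 over all genes tested. Samples with the same number thus shared little deviation, but such correlations cannot exclude that they were handled together. With 3 samples per day the adjusted threshold was hard to reach, as *Hsph1* with a log2 fold change of 1.55 and an adjusted p of 0.1 from limma missed it.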
